A study of Mus musculus with 6 samples.

Results

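The genes described here are 10 genes listed as contractile and SRF-driven cytoskeleton genes, SRF being serum response factor. They are Acta2, Tagln, Cnn1, Cnn2, Tpm1, Tpm2, Myl9, Myh9, the intermediate filament gene Vim, and Srf itself. They were chosen by name, as the table rows whose Ensembl identifier carries one of these symbols in GENCODE M21, and they are 10 of 16540 genes listed. All 10 passed the filter on low values, as did 16526 of all genes: 2 or more libraries had to reach 10 normalised counts.

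Polyadenylated RNA was sequenced from NIH-3T3, an established mouse embryonic fibroblast line of NIH/Swiss origin. PC sg2 and PC sg5 are guide RNAs against pyruvate carboxylase (PC, gene Pcx), the mitochondrial enzyme that makes oxaloacetate from pyruvate, and R26 sg1 is the control guide, named after the Rosa26 locus. The cells of every group carried lentiviral Cas9, were selected with 2 ug/mL puromycin, were kept as uncloned pools and were grown for 48 h in 10% dialyzed serum with glutamine at 0.2 mM. There were 2 libraries each for PC sg2, PC sg5 and the control. Nothing in the labels tells if libraries with the same guide are separate cultures. Each p-value thus measures only the spread between these libraries, which may be technical. In limma that spread is in part shared over all genes.

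Cells pull on their surroundings with actin filaments and non-muscle or smooth muscle myosin II. Tropomyosins, calponins and transgelin bind along actin filaments, and the phosphorylation of the myosin regulatory light chain by myosin light chain kinase switches the motor on. Serum response factor, encoded by Srf, is a transcription factor that binds the CArG box, a CC, a run of A and T, and a GG. Its partners are the myocardin-related factors Mrtfa and Mrtfb, which monomeric actin holds back, and the ternary complex factors Elk1, Elk3 and Elk4. In fibroblasts, smooth muscle actin (Acta2) marks the contractile myofibroblast state.

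Promoter windows from RefSeq (GRCm38.p6, 250 bases before to 50 after the annotated start) were matched for 9 of the 10 genes, all but Tagln. The 5 stretches shown are those that hold a CArG box, searched on both strands, with at most 1 mismatch. They are printed 5′ to 3′ on the gene's strand with each CArG match in capitals, so that the arrangement of matches can be set beside the expression values. The stretches are Myl9 chr2:156775283-156775394 (+), Cnn2 chr10:79988524-79988573 (+), Srf chr17:46556172-46556264 (-), Acta2 chr19:34255378-34255477 (-) and Tpm1 chr9:67049264-67049454 (-).
Myl9: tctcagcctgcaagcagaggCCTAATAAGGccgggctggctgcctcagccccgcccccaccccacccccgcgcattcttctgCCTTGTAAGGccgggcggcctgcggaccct
Cnn2: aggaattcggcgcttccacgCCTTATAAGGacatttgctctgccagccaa
Srf: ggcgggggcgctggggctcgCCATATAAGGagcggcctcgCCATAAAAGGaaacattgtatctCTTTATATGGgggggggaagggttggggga
Acta2: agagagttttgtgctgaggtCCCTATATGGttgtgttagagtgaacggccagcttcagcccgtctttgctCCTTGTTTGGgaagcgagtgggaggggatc
Tpm1: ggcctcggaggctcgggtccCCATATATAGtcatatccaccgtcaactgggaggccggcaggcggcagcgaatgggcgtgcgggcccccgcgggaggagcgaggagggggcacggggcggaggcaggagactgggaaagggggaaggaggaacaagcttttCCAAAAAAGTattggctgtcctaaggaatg

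An exact CArG box lay in 3 of the 9 windows, against 1.63% of all 32851 promoter windows of 300 bases. The genes were listed as SRF-driven, so a share above that of all windows is not an independent finding. Myl9 held CCTAATAAGG, 161 bases upstream of the start. Cnn2 held CCTTATAAGG, 56 bases upstream. Srf itself held a pair, CCATATAAGG and CCATAAAAGG, 82 and 62 bases upstream. With 1 mismatch allowed, 5 of the 9 windows held a match, against 21.1% of all windows. Acta2 then had CCCTATATGG and CCTTGTTTGG, and Tpm1 had CCATATATAG and CCAAAAAAGT. TATAAA and CATTCC were also searched on both strands. TATAAA was found in 3 of the 9 windows, against 13.6% of all windows. On the gene's strand it read TATAAA in Vim, and its reverse complement TTTATA in Myh9 and Srf. In Srf this TTTATA overlaps the third CArG match, CTTTATATGG. CATTCC was found in 2 of the 9 (Tpm1 and Acta2), each time as its reverse complement GGAATG, against 14.7% of all windows. Each match is a description of the letters in this window, and the windows of Vim, Tpm2, Cnn1 and Myh9 held no CArG match at these settings.

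The targeted gene was checked first. Pcx had 316 and 375 normalised counts in PC sg2 cells and 713 and 716 in PC sg5 cells, against 2914 and 3015 in the control. Both guides lay far below the control, and PC sg5 lay above PC sg2 by 1.05 on the log2 scale (limma, Benjamini-Hochberg adjusted p = 6.60e-07). A normalised count is the number of reads of a gene scaled by the size factor of that library. It compares libraries but not genes of different length. The libraries held between 22895172 reads (PC sg5 replicate 2) and 71710049 reads, so 3 reads corresponded to 2.18 to 6.41 normalised counts, and this floor covers counting error only. Of 10 fibroblast markers, 9 were measured and all 9 were lower with the PC guides, where 33.6% of all genes tested were lower. Their summed level was 407359 to 425230 normalised counts in the PC libraries and 922544 to 969564 in the control. Col1a1 (34.5% of control), Col1a2 (55.9%) and Col3a1 (35.2%) made up most of it. The other markers ranged from Lum (21.6%), with 8 to 13 reads per PC library, to Ddr2 (91.1%). Fap was not analysed here. Of the 8 smooth muscle markers, 7 were measured, 6 were lower and 1 was not past the threshold, to be read against the same share. Their summed level was 2094 to 2241 in the PC libraries and 3575 to 3716 in the control. Most of this sum was Smtn, at 1766 to 1889 in the PC libraries and 2583 and 2724 in the control (68.4% of control). Actg2 (31.7%), Lmod1 (28.6%), Des (21.9%), Synpo2 (38.0%) and Cnn1 (37.4%) stood lower against control, and Myh11 was at 170%. This list includes Cnn1, and its defining marker Myocd was not analysed here. Of the markers of skeletal muscle 3 of 8 were measured, of adipocytes 2 of 5, and of endothelium, epithelium and leukocytes 1 of 5 each. None measured was at 0 in any library, but some were at or near the floor of 3 reads. Tnnt3 of skeletal muscle had 3, 4, 10 and 3 reads in the PC libraries, and Fabp4 of adipocytes had 9, 5, 10 and 1. Called lower were 2 of the 3 skeletal muscle markers, 2 of the 2 adipocyte markers and the 1 epithelium marker. None of these markers was called higher. Their summed levels were 46.8 to 67.8 in the PC libraries and 104 to 120 in the control for skeletal muscle, and 331 to 431 in the PC libraries and 561 to 655 in the control for adipocytes. Pparg made up most of the adipocyte sum, at 329 to 424 in the PC libraries and 540 to 637 in the control. Cdh1 of epithelium summed to 8.55 to 19.1 in the PC libraries and 57.4 to 58.7 in the control. Pecam1 of endothelium was at 17.9 to 29.8 in PC sg2 libraries and 10.7 to 13.2 in PC sg5 libraries, against 10.4 to 13.8 in the control. Cd68 of leukocytes was at 54.6 to 89.8 in the PC libraries and 68.6 to 68.9 in the control, and neither was past the threshold. The part of these markers in the results was not tested.

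All 10 genes were lower with both PC guides together than in the control, at an adjusted p under 0.05. In the same fit 33.6% of all genes tested were lower and 34.3% were higher, so a lower value alone was common. The 10 genes had a median log2 fold change of -1.18, with a range of -1.68 to -0.21, while the median over all genes was -0.01. At least 2-fold lower were 7 of the 10 genes, against 11.3% of all genes tested. Of these, Cnn2 and Tpm1 lay on the cut, at -1.01 each. Among the alternative settings they came as near to 0 as -0.83 and -0.86. With PC sg2 alone 6 of the 10 were at least 2-fold lower, against 12.3% of all genes by fold change alone. In each of the 10 genes all 4 PC libraries lay below both control libraries, a pattern seen in 36.6% of all genes. In bulk RNA, fewer cells that express a gene and less RNA of it per cell cannot be told apart. Together the 10 genes took 0.543% to 0.554% of all reads in the 4 PC libraries and 1.13% to 1.15% in the 2 control libraries.

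**Figure D1:**
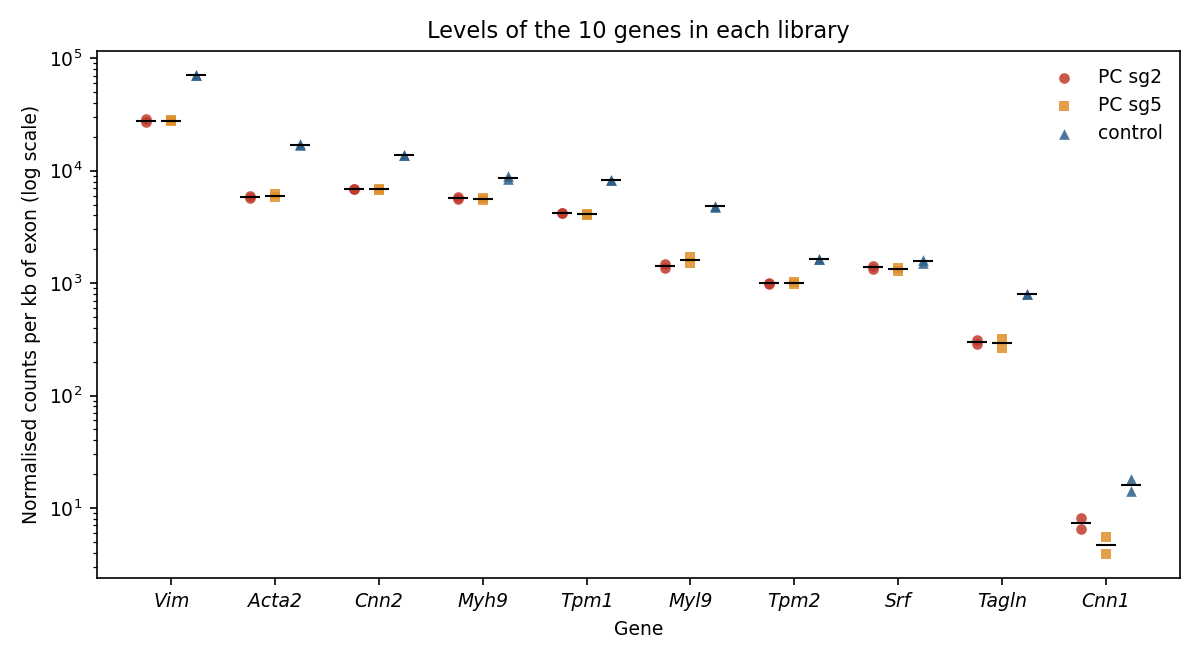
Normalised counts per kb of exon (log axis) for each of the 10 genes in each library, with PC sg2 as circles, PC sg5 as squares and the control as triangles. The short black bars are group means. In every gene the PC libraries sit below the control libraries, narrowly in Srf, and the 2 guides are farthest apart in Cnn1.

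Smooth muscle actin, Acta2 (ENSMUSG00000035783, chr19:34241090-34255590, minus strand), builds the contractile filaments of smooth muscle and of activated fibroblasts. It had 13128 and 12629 normalised counts in PC sg2 cells and 13516 and 12866 in PC sg5 cells, against 37013 and 37959 in the control. The 4 PC libraries lay close together well below both control libraries. The PC mean was 13035 ± 380 (SD, n = 4) and the control mean 37486 ± 669 (SD, n = 2), a PC level of 34.8% of control. The log2 fold change was -1.52 ± 0.03 (SE, 95% confidence interval -1.58 to -1.47, limma, Benjamini-Hochberg adjusted p = 2.60e-21). Its window above holds a pair of CArG matches, each with 1 mismatch, as does that of Tpm1.

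Transgelin, Tagln (ENSMUSG00000032085, chr9:45929619-45936058, minus strand), is an actin-binding protein of smooth muscle and a marker of contractile differentiation. It had 624 and 568 normalised counts in PC sg2 cells and 631 and 530 in PC sg5 cells, against 1588 and 1587 in the control. All 4 PC libraries were far below the control pair, and the PC libraries spread more than the controls. The log2 fold change was -1.43 ± 0.08 (SE, adjusted p = 2.66e-13 by limma). Of its exon bases, 67.9% are shared with Pcsk7 and Gm48529 on the opposite strand, and the library kit does not mark strand, so reads of these genes could be mixed. Pcsk7, a protease gene, had 1652 and 1583 normalised counts in PC sg2 cells and 1540 and 1569 in PC sg5 cells, against 1565 and 1724 in the control. Its groups overlapped and it was not past the threshold (log2 fold change -0.05, limma adjusted p = 0.408).

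The calponins bind actin and slow the myosin motor. Cnn2 (ENSMUSG00000004665, chr10:79988584-79996062, plus strand), a form of smooth muscle and non-muscle cells, had 16861 and 16890 normalised counts in PC sg2 cells and 16655 and 17053 in PC sg5 cells, against 33902 and 33882 in the control. Its PC level was 49.8% of control, with a spread of 163 normalised counts (SD, n = 4) around a PC mean of 16865, and the log2 fold change was -1.01 ± 0.02 (SE, limma adjusted p = 1.73e-19). The PC libraries with either guide were all near this mean.

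Cnn1 (ENSMUSG00000001349, chr9:22099216-22109630, plus strand), the smooth muscle form, was near the lower end of detection. It had 17.9 and 22.3 normalised counts in PC sg2 cells and 15.2 and 10.7 in PC sg5 cells, against 49.97 and 38.4 in the control. These rest on 23, 21, 15 and 5 reads in the PC libraries and on 67 and 53 reads in the control. No PC library reached a control library, but the values were scattered, and the log2 fold change of -1.40 had an interval of -2.20 to -0.60 (limma, adjusted p = 0.00292). Without control replicate 1 it was -1.21 with a limma adjusted p of 0.0741, which is not past the threshold. With PC sg2 alone it was -1.09 (limma adjusted p = 0.0367), a call lost without any 1 of the PC sg2 or control libraries, at adjusted p of 0.148 and 0.0632 without PC sg2 replicates 1 and 2, and of 0.229 and 0.0816 without control replicates 1 and 2. With PC sg5 alone it was -1.71 (limma adjusted p = 0.00203).

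Tropomyosins lie along the groove of the actin filament and govern which myosins and other proteins can bind it. Tpm1 (ENSMUSG00000032366, chr9:67022590-67049406, minus strand) had 27216 and 27158 normalised counts in PC sg2 cells and 26179 and 26911 in PC sg5 cells, against 54051 and 53959 in the control. Its PC mean was 26866 ± 477 (SD, n = 4) and its control mean 54005 ± 65.0 (SD, n = 2), with a log2 fold change of -1.01 ± 0.02 (SE, limma adjusted p = 5.09e-20). The change was close to that of Cnn2, at 49.7% of control.

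Tpm2 (ENSMUSG00000028464, chr4:43514711-43523765, minus strand), the beta tropomyosin of muscle that fibroblasts also make, had 2930 and 2854 normalised counts in PC sg2 cells and 2991 and 2845 in PC sg5 cells, against 4759 and 4764 in the control. All PC libraries lay well below both controls, at 61.0% of the control mean. Its log2 fold change was -0.71 ± 0.04 (SE, limma adjusted p = 3.13e-13). The ratio of Tpm1 to Tpm2 is given with the other ratios.

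Myl9 (ENSMUSG00000067818, chr2:156775420-156781658, plus strand) encodes a regulatory light chain of smooth muscle and non-muscle myosin II. It had 1588 and 1719 normalised counts in PC sg2 cells and 1981 and 1742 in PC sg5 cells, against 5695 and 5502 in the control. The PC mean was 1757 ± 164 (SD, n = 4) and the control mean 5598 ± 136 (SD, n = 2), a PC level of 31.4% of control and the lowest relative level of the 10 genes in this fit. Its log2 fold change was -1.68 ± 0.05 (SE, limma adjusted p = 1.58e-17). Its promoter window is the one above with an exact CArG box and a near match.

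Myh9 (ENSMUSG00000022443, chr15:77760587-77842175, minus strand), the heavy chain of non-muscle myosin IIA, had 73105 and 75222 normalised counts in PC sg2 cells and 73196 and 71459 in PC sg5 cells, against 108740 and 116002 in the control. Both control libraries were well above all PC libraries, although they differed from each other more than the PC libraries did. The PC level was 65.2% of control, and the log2 fold change was -0.62 ± 0.02 (SE, limma adjusted p = 6.53e-16). With quantile normalisation it was -0.34, still past the threshold (limma adjusted p = 2.59e-11).

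Vimentin, Vim (ENSMUSG00000026728, chr2:13573927-13582826, plus strand), forms the intermediate filaments of fibroblasts and other mesenchymal cells. It had 135828 and 128146 normalised counts in PC sg2 cells and 133955 and 131217 in PC sg5 cells, against 335092 and 338784 in the control. The PC libraries were near 39.3% of the control mean, and the groups were widely apart. Its log2 fold change was -1.35 ± 0.02 (SE, limma adjusted p = 4.04e-22). By normalised count it ranked 9, 12, 10 and 11 among all genes in the PC libraries, and 4 in each control library. Vim alone took 0.258% to 0.274% of all reads in the PC libraries, against 0.648% and 0.651% in the control.

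Srf (ENSMUSG00000015605, chr17:46548329-46556175, minus strand), the transcription factor itself, changed least of the 10 in this fit. It had 3870 and 4132 normalised counts in PC sg2 cells and 3707 and 3954 in PC sg5 cells, against 4411 and 4670 in the control. All PC libraries lay below both controls, though PC sg2 replicate 2 was near the lower control. The PC level was 86.2% of control, and the log2 fold change was -0.21 ± 0.04 (SE, 95% confidence interval -0.30 to -0.13, limma adjusted p = 7.82e-05). With PC sg2 alone it was -0.18 (limma adjusted p = 0.00176), with library totals as the scale -0.12 (adjusted p = 0.0320), and without an intensity trend the adjusted p was 0.0734. With PC sg5 alone it was -0.25 (limma adjusted p = 9.38e-05). The Srf window held more exact CArG boxes than the other windows here. A relation of CArG boxes to the expression values was not tested.

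**Figure D2:**
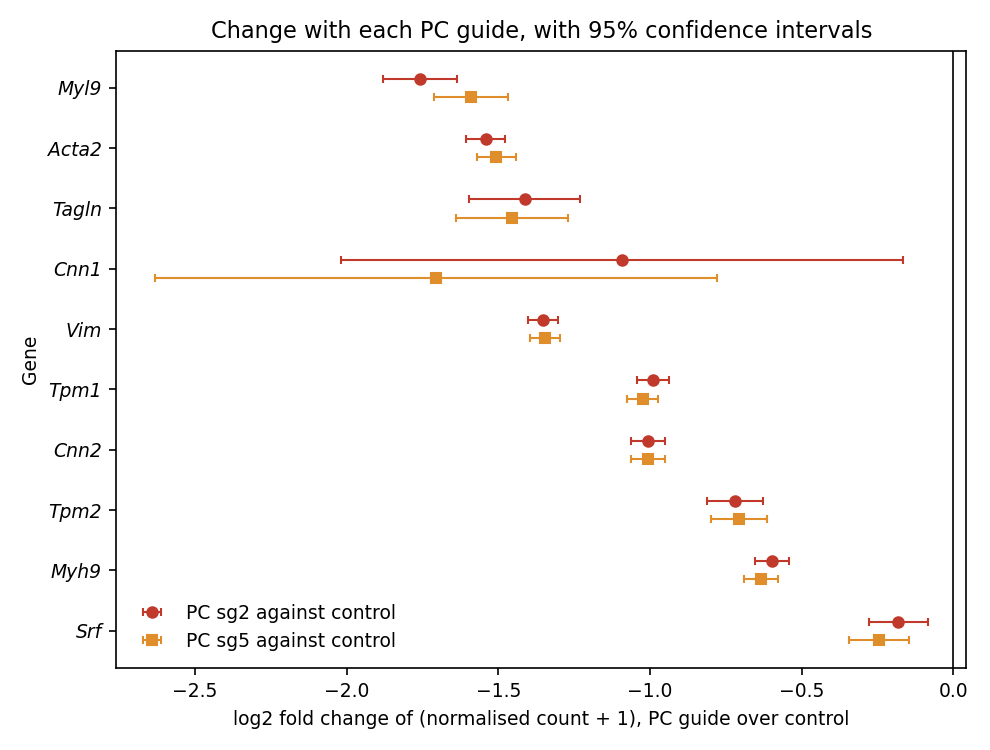
log2 fold change of each gene with PC sg2 (circles) and with PC sg5 (squares) over the same 2 control libraries, with bars for the 95% confidence interval. The lowest point is Myl9 with PC sg2 (-1.76) and Cnn1 with PC sg5 (-1.71), Srf lies nearest to 0 with both guides, and Cnn1 has the widest interval (-2.63 to -0.78 with PC sg5).

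Each guide gave the same call in the main fit. With PC sg2, 10 of the 10 genes were lower, against 31.6% of all genes, with a median log2 fold change of -1.05. With PC sg5, 10 of the 10 were lower, against 31.8% of all genes, with a median of -1.19. These 2 comparisons share the control libraries. Set directly against each other, PC sg5 and PC sg2 differed in 0 of the 10 genes (limma adjusted p of 0.286 to 0.990), against 0.242% of all genes tested in either direction. edgeR and DESeq2 on the recovered reads also called 0, while 1 gene, Myl9, had an unadjusted p under 0.05 by limma. Myl9 was 0.17 higher on the log2 scale with PC sg5 than with PC sg2 (interval 0.05 to 0.29, unadjusted p = 0.00898 and adjusted p = 0.286 by limma across all genes). The intervals of Acta2 (-0.03 to 0.10), Vim (-0.04 to 0.06) and Cnn2 (-0.06 to 0.05) were narrow, and that of Cnn1 (-1.54 to 0.31) was wide. They rest on the spread between these libraries, which may be technical, so they do not bound a difference between the guides. Pcx itself was higher with PC sg5 than with PC sg2, as given above.

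Because normalised counts were not corrected for length, levels were compared between genes only per kb of exon in GENCODE M21. This length merges all annotated exons of a gene and can exceed that of the transcript expressed. The order between genes depends on it. In PC libraries the order was Vim (27891 normalised counts per kb), Cnn2 (6856), Acta2 (5936), Myh9 (5666), Tpm1 (4143), Myl9 (1512), Srf (1354), Tpm2 (999), Tagln (296) and Cnn1 (6.04). In the control the order was Vim (71039), Acta2 (17070), Cnn2 (13777), Myh9 (8692), Tpm1 (8328), Myl9 (4818), Tpm2 (1637), Srf (1569), Tagln (798) and Cnn1 (16.2). With these lengths, Acta2 stood below Cnn2 in PC libraries and above it in control libraries. Srf stood above Tpm2 in PC libraries and below it in control libraries. In PC libraries the ranges of Acta2 and Myh9 overlapped, as did those of Myl9 and Srf, and no other neighbours in that order did. No neighbours overlapped in the control.

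Ratios of a gene to a relative within each library compare how unequally they moved, and they do not show that either was constant. There were 10 such pairs, and the relatives Tagln2, Tpm4, Myl12a and Myh10 were chosen after values had been seen. Myl9 over Myl12a, another myosin regulatory light chain, averaged -3.36 ± 0.12 (log2 ratio, SD, n = 4) with the PC guides and -1.84 ± 0.04 (SD, n = 2) in the control, a difference of -1.51. The difference was -0.80 for Tagln over Tagln2, its broadly expressed relative, and -0.73 and -0.59 for Acta2 over the cytoplasmic actins Actb and Actg1. Reads of the near-identical actin sequences, and of Myl12a and its overlapping neighbour Myl12b, could have been split between copies. It was -0.54 for Tpm1 over Tpm4, -0.29 for Tpm1 over Tpm2, -0.21 for Myh9 over Myh10, the heavy chain of non-muscle myosin IIB, and -0.19 for Cnn2 over Cnn3. The difference for Srf over Mrtfa was 0.27, the only positive one of the 10. In 9 of the 10 pairs the ratios of PC and control libraries did not overlap, with an exact two-sided permutation p of 0.0667 each, the smallest that 15 arrangements allow, and 0.0741 after Benjamini-Hochberg adjustment over the 10 pairs. In the remaining pair, Cnn1 over Cnn2, the groups overlapped (difference -0.39, exact permutation p = 0.333).

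**Figure D3:**
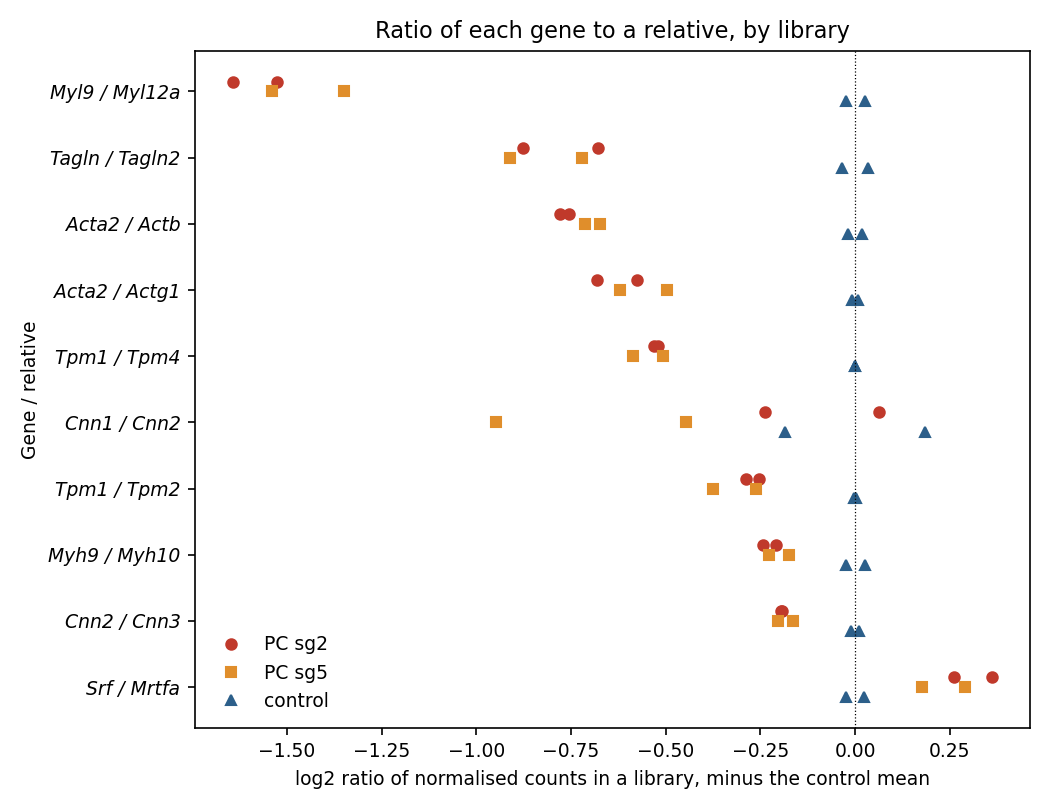
log2 ratio of each gene to a relative in every library, shifted so that the control mean is 0, with PC sg2 as circles, PC sg5 as squares and the control as triangles. In 9 of the 10 pairs the 4 PC libraries lie on one side of both controls, to the left except for Srf over Mrtfa, and in Cnn1 over Cnn2 they overlap.

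The other genes of the pathway were read from lists by role, 84 genes in all with the 10 left out, of which 78 were tested. With both PC guides together, 48 of the 78 (61.5%) were lower, 18 (23.1%) were higher and 12 were not past the threshold, with a median log2 fold change of -0.37. Of all genes tested, 33.6% were lower and 34.3% higher, and each list below is to be read against these shares. At least 2-fold lower were 17 of the 78, against 11.3% of all genes. Among genes named from these lists, Elk3 (6.95%), Mylk (6.85%), Tpm4 (6.08%), Des (5.86%), Actg1 (5.53%), Elk4 (2.93%), Mrtfb (1.8%), Elk1 (1.41%) and Mrtfa (0.164%) share some exon bases with another annotated gene, where reads could be mixed. The shares of Myl12a (19.9%), Cnn3 (17.7%) and Smtn (16.3%), named above as a marker, are larger.

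The cofactors of serum response factor did not move in 1 direction, with 3 of 5 lower, 1 higher and 1 not past the threshold (median -0.13). Mrtfa had 4519 and 4501 normalised counts in PC sg2 cells and 4588 and 4521 in PC sg5 cells, against 6268 and 6427 in the control (log2 fold change -0.49 ± 0.03 SE, limma adjusted p = 1.59e-11). The 4 PC libraries were nearly equal and well below both controls. Elk3 was lower by a similar amount (-0.46, limma adjusted p = 6.82e-10), and Elk4 was higher (0.17, limma adjusted p = 5.83e-04). Mrtfb was lower by a small margin (-0.13, limma adjusted p = 0.00678), a call lost when library totals set the scale (-0.06, adjusted p = 0.212), without an intensity trend (adjusted p = 0.0556) and without control replicate 2 (-0.10, adjusted p = 0.0959). Elk1 was at -0.09 (limma adjusted p = 0.0976), and it passed the threshold with quantile normalisation (adjusted p = 0.0389) and without PC sg2 replicate 2 (adjusted p = 0.0352).

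Of the other actins, 3 of 4 were lower and 1 was not past the threshold (median -0.86). Actb, cytoplasmic beta actin, had 64152 and 62689 normalised counts in PC sg2 cells and 62404 and 61043 in PC sg5 cells, against 108488 and 108410 in the control (-0.79, limma adjusted p = 4.60e-19). Actg1, cytoplasmic gamma actin, fell by 0.93 on the log2 scale (limma adjusted p = 2.01e-19), so both cytoplasmic actins fell, but less than Acta2. Actg2, the enteric smooth muscle actin, had 162 and 183 normalised counts in PC sg2 cells and 110 and 115 in PC sg5 cells, against 482 and 417 in the control (-1.68, limma adjusted p = 2.89e-10). Acta1, skeletal actin, had 10.7 to 29.6 normalised counts in the PC libraries and 20.9 and 27.6 in the control, and these groups overlapped (-0.34, limma adjusted p = 0.493).

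Among other myosin chains and regulators, 6 of 11 were lower, 4 higher and 1 not past the threshold (median -0.16), and the share higher, 36.4%, was near the 34.3% of all genes. Mylk, the kinase that phosphorylates the light chain encoded by Myl9, had 983 and 798 normalised counts in PC sg2 cells and 967 and 1105 in PC sg5 cells, against 4989 and 5355 in the control. Its log2 fold change of -2.43 ± 0.07 (SE, limma adjusted p = 6.41e-18) was lower than that of any of the 10 genes. Myh11, the smooth muscle heavy chain, had 28.1, 21.3, 21.2 and 19.2 normalised counts in the PC libraries against 11.9 and 14.5 in the control, all PC libraries above both controls but not past the threshold (0.71, limma adjusted p = 0.132). Without an intensity trend it passed (adjusted p = 0.0163). So 1 smooth muscle marker of the list stood on the other side of the control from Acta2 and Cnn1.

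Of the other filament-binding proteins, 4 of 5 were lower and 1 was not past the threshold (median -0.47). Cnn3, the acidic calponin, fell to 10474 to 10593 normalised counts in the PC libraries, against 18427 and 18703 in the control (-0.82, limma adjusted p = 2.61e-17), with 17.7% of its exon bases shared with another gene. Cald1, caldesmon, was between 56830 and 59019 in the PC libraries and at 58486 and 58645 in the control (-0.02, limma adjusted p = 0.461). Its sign turned with quantile normalisation (0.10) and with library totals (0.05), where it was called higher.

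Actin cross-linkers and other smooth muscle contractile genes had 14 of 17 lower, 3 higher and 0 outside both calls (median -0.64). Lmod1, leiomodin, which starts actin filaments in smooth muscle, had 63.1 and 63.8 normalised counts in PC sg2 cells and 84.0 and 96.2 in PC sg5 cells, against 266 and 270 in the control (-1.81, limma adjusted p = 5.56e-09). Fhl1, a LIM protein, was the highest of this list (0.77, limma adjusted p = 5.03e-05).

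Of the other intermediate filament, lamin and linker genes, 5 of 7 were lower, 1 higher and 1 not past the threshold (median -0.51). Des, desmin, a muscle relative of vimentin, had 14.0 and 11.7 normalised counts in PC sg2 cells and 26.3 and 19.2 in PC sg5 cells, against 72.3 and 90.6 in the control (-2.19, limma adjusted p = 7.72e-06). Lmnb2, lamin B2, was the highest (0.82, limma adjusted p = 2.03e-12). Among immediate early genes with serum response factor sites, 5 of 9 were lower, 2 higher and 2 not past the threshold (median -0.45). Egr1, a zinc finger factor, had 873 and 802 normalised counts in PC sg2 cells and 709 and 947 in PC sg5 cells, against 2056 and 2191 in the control (-1.36, limma adjusted p = 2.72e-12). Ier2, an immediate early gene, was the highest (0.39, limma adjusted p = 9.46e-07).

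**Figure D4:**
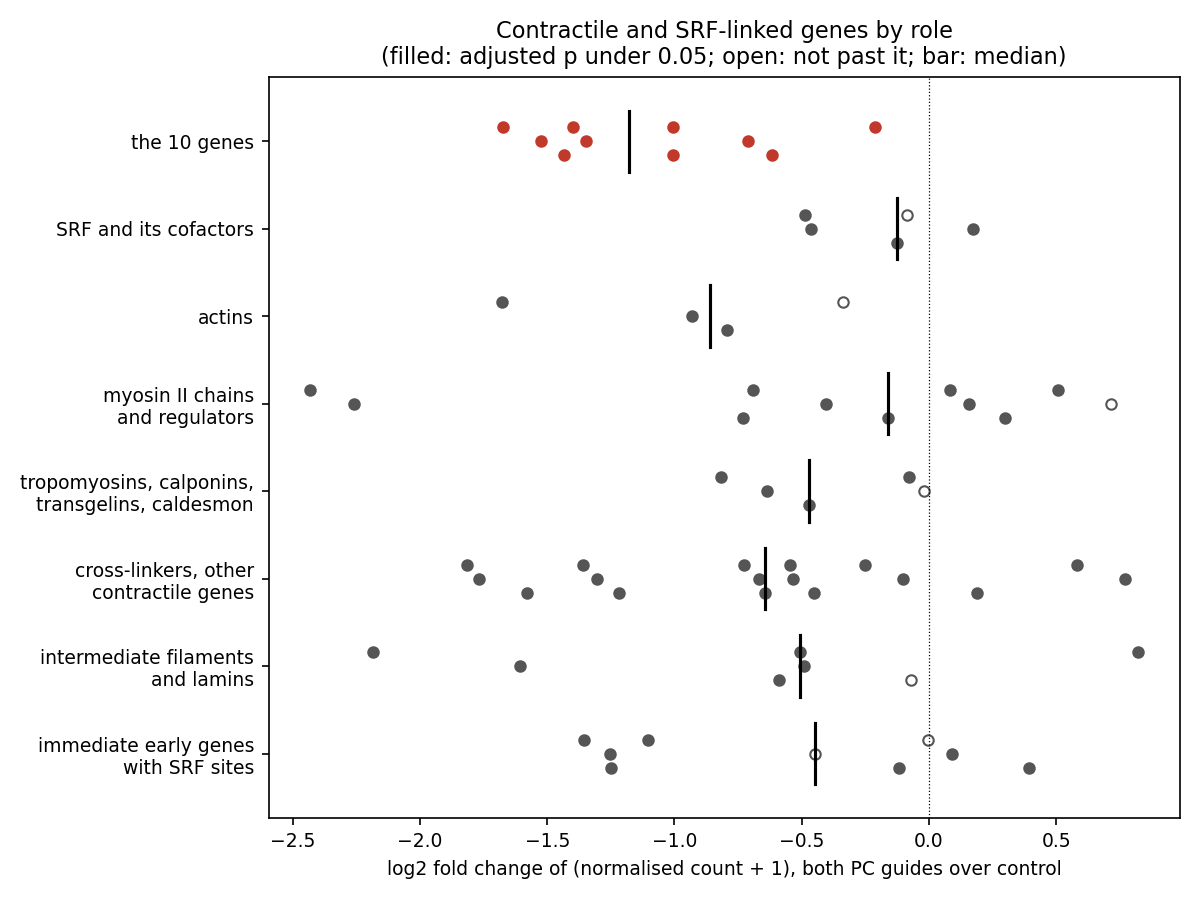
log2 fold change of both PC guides over control for the 10 genes (red) and for other contractile and SRF-linked genes by role (grey), filled where the adjusted p is under 0.05, with a bar at each median. The 10 genes all lie below 0 (median -1.18), while the cofactors (median -0.13) and the myosin chains and regulators (median -0.16) lie on both sides of it.

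The genes nearest to Srf and Acta2 over the 6 libraries were found by the Euclidean distance of log2 values, each centred on the gene's own mean, among 11794 genes that averaged 100 or more normalised counts. Nearest to Srf were Usp12 (distance 0.04, log2 fold change -0.22), Elf4 (0.04, -0.22) and Dennd4c (0.05, -0.19). Nearest to Acta2 were Gsn, gelsolin, which cuts and caps actin filaments (0.05, -1.52), Ikbke (0.07, -1.51) and Fstl1 (0.07, -1.52). Fstl1 had 22251 to 23677 normalised counts in the PC libraries, against 65869 and 66209 in the control, and Ikbke had 498 to 512 in the PC libraries, against 1424 and 1458 in the control. These distances over 6 libraries in 3 groups are a description.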

How the data were processed

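Per the submitters' processing notes, the build was GRCm38 and the tools were STAR, featureCounts, Trimmomatic, bcl2fastq 2.17 and DESeq2. The sources used here do not give their settings, the annotation or the strand setting of the counting. Deposited by the authors was a signal, read counts per gene over a library size factor, for 16540 genes and 6 libraries. All values above 0 were whole multiples of 1 step per library (tolerance 0.01), so reads could be recovered. The lowest total of reads of a listed gene was 61. Identifiers were matched to GENCODE M21, and 16498 received a symbol.

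limma 3.58.1 (R 4.3.3) was run on log2(normalised count + 1) with an intensity trend, 3 groups, two-sided tests and Benjamini-Hochberg adjustment over 16526 genes, with 3 residual degrees of freedom. Fold changes on this scale understate changes of low genes. Every log2 fold change is PC over control, or PC sg5 over PC sg2. An adjusted p under 0.05 was past the threshold. No outlier test was made, as each group has 2 libraries. Alternatives included edgeR 4.0.16 and DESeq2 1.42.0 on the recovered reads, and the scripts were tested on simulated data.

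The 10 genes, the role lists and the naming rule were chosen with earlier results of these data known. Named were the 10 genes, Pcx, the highest and the lowest gene of each role list reported, every SRF cofactor and actin tested, and the 3 genes nearest to Srf and to Acta2. Pcsk7 and 4 of the relatives in ratios were named outside this rule. The genes of 1 role list enter the counts over all lists, but that list is not reported here.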

Additional observations from a re-analysis of the deposited data

How the results depend on the processing

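Over 18 alternatives, each of the 10 genes kept a lower value with both PC guides together and with each PC guide than in the control wherever it could be fitted. The counts of the 10 genes past the threshold were 9 or 10 for both guides together, for PC sg2 and for PC sg5. Besides the lost calls of Cnn1 and Srf given above, Cnn1 with PC sg2 was not past the threshold with quantile normalisation (limma adjusted p = 0.0821) or with DESeq2 (adjusted p = 0.0579), and Cnn1 was not fitted where a mean of at least 50 normalised counts was required. Myh9 was more than 1.5 times nearer to 0 with quantile normalisation (-0.34 for both guides together). Of the 78 other contractile genes, between 57 and 69 were past the threshold. The fit of only the groups compared equals the main one for both guides together and has no separate value there. Under all alternatives the median log2 fold change of all genes lay at most 0.073 from 0.

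The count of all genes that differed between PC sg5 and PC sg2, 40, depended most on the settings. It was 65 with a pseudocount of 8, 65 with a mean of at least 50, 63 with library totals, 0 without an intensity trend (limma, with 1241 genes at an unadjusted p under 0.05), 68 with edgeR and 91 with DESeq2. With each library left out it ran from 10 to 218: 14 and 10 without PC sg2 replicates 1 and 2, 218 without PC sg5 replicate 1, and 26 without control replicate 1 or control replicate 2. With the replicate number as a block it was 160, while the block gave 11352 genes for both guides together, against 11222 without it. Same-numbered libraries deviated with correlations of 0.03 (PC sg2 and PC sg5), -0.02 (PC sg2 and control) and 0.03 (PC sg5 and control). The labels do not say if the number marks a shared culture, day or batch. With 2 libraries per group these correlations cannot settle it.

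Differences between PC sg5 and PC sg2 near 0 changed sign, and the cause was not tested. Cnn2 was 0.013 with quantile normalisation, 0.010 with library totals and 0.0023 with edgeR, and Vim was -0.066 with quantile normalisation. With each library left out, Acta2 ran from -0.0012 to 0.070, Tagln from -0.17 to 0.085, Cnn2 from -0.019 to 0.015, Tpm2 from -0.024 to 0.049 and Vim from -0.035 to 0.049. Against the control, Pcsk7 was 0.018 with library totals and -0.12 to 0.018 with each library left out, and Cald1 was 0.10 with quantile normalisation and 0.052 with library totals. Low read counts limit Cnn1, Acta1, Myh11 and Des most.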
